A study of Mus musculus with 6 samples.

Results

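The genes described here encode the proteins that carry out silencing once a miRNA has brought an Argonaute protein to an mRNA. They are the 3 TNRC6 scaffolds (Tnrc6a, Tnrc6b and Tnrc6c), 4 subunits of the CCR4-NOT deadenylase (Cnot1, Cnot6, Cnot6l and Cnot7), the deadenylase adaptor Pan3, the helicase Ddx6 and the decapping scaffold Edc4. They were chosen by name for this role, with earlier results of these data known, and all 10 were found among the 55471 genes counted. Their shares set beside those of all genes are therefore descriptive. RNA-seq was performed on tissue from the rostral tip of the mouse telencephalon at E11.5, in 3 control and 3 Rx-Dicer samples. Control embryos were Dicer F/F, with floxed alleles and no Cre, and their labels also call them WT. Rx-Dicer embryos were RxCre-Dicer F/F, the same floxed alleles with Cre under regulatory sequences of Rx, which is active in the early forebrain. Rx3-Cre mice were kept on a CD1 and floxed Dicer mice on a C57BL/6 background. Whether a library came from 1 embryo or from several is not stated, so that p-values measure the spread between these samples, which may in part be technical.

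TNRC6 proteins, also called GW182 proteins, bind Argonaute and recruit the CCR4-NOT and PAN2-PAN3 complexes, which shorten the poly(A) tail. CNOT1 is the scaffold of CCR4-NOT, CNOT6 and CNOT6L are its alternative CCR4-type nucleases, and CNOT7 is a CAF1-type nuclease. PAN3 holds the nuclease PAN2 on the mRNA, DDX6 links CCR4-NOT to translational repression and decapping, and EDC4 is a scaffold for the decapping enzyme DCP2. Dicer acts upstream of all of them, since it cuts the precursors from which most mature miRNAs are made.

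Libraries held 34471501 to 48373468 counts on genes and the members had 1642 to 22085 raw counts per library. Dicer1 had 6355, 7070 and 6270 normalised counts in control samples 1 to 3, and 4777, 7002 and 4644 in Rx-Dicer samples 1 to 3. Its log2 fold change was -0.26 ± 0.17 (SE; DESeq2 adjusted p = 0.567), and -0.47 (DESeq2 adjusted p = 8.81e-04) without Rx-Dicer 2, the library with Dicer1 at the control level. That library was singled out by its own Dicer1 value, so that this fit is no test of a fall in Dicer1. Without any other single sample the log2 fold change was -0.29 to -0.16 (DESeq2 adjusted p of 0.604 to 0.922). The Dicer1 count takes in reads from exons that the floxed allele leaves in place. Normalised counts are counts divided by the DESeq2 size factor of the library, and fold changes are Rx-Dicer over control. In whole tissue, fewer cells of a type and less RNA per cell cannot be told apart.

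Of the 10 genes, 3 rose in Rx-Dicer tissue and 0 fell. Tnrc6a rose 1.66-fold, Tnrc6b 1.57-fold and Cnot6l 1.37-fold, each with all 3 Rx-Dicer values above all 3 control values. The other 7 members passed no call, which required a DESeq2 adjusted p below 0.05 together with a log2 fold change larger than 0.322 in either direction. An unadjusted DESeq2 p below 0.05 was reached by 5 of the 10, against 2239 of the 17128 genes tested. By the same rule 1.75% of the 17128 genes tested rose and 1.18% fell. The median log2 fold change of the 10 members was 0.22, against -0.00087 over all genes tested, and 9 of 10 were above 0, against 49.9% of all genes tested. The log2 fold changes of all 10 members were lower with a correction for gene length and GC content, given below. With it Cnot7 (-0.11), Ddx6 (-0.038) and Edc4 (-0.056) were below 0, while the median over all genes tested was -0.049. Whether this dependence on length and GC content is technical was not tested. Cnot1, Cnot6 and Pan3 then lay at 0.0085, 0.073 and 0.059. By edgeR's quasi-likelihood test, at the same thresholds, 1 member rose (Tnrc6a), where 0.0446% of 17954 genes rose.

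**Figure D1:**
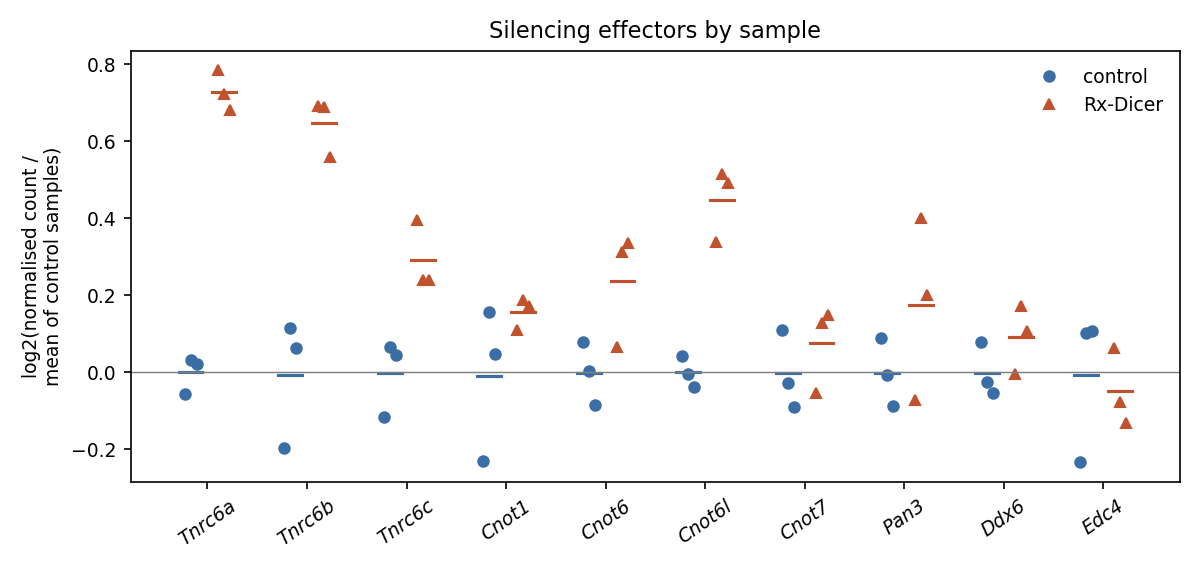
Normalised count of each silencing effector in each sample, as the log2 ratio to the mean of the 3 control samples. Circles are control and triangles Rx-Dicer samples, and short lines are the means of the log2 values. Rx-Dicer and control samples separate for Tnrc6a, Tnrc6b, Tnrc6c and Cnot6l, and overlap for the other 6 genes.

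Tnrc6a (ENSMUSG00000052707, GRCm38 chr7:123123885-123195296, plus strand) had the largest log2 fold change of the 10 genes. Its normalised counts were 5869, 6239 and 6195 in control samples 1 to 3 and 10507, 10061 and 9783 in Rx-Dicer samples 1 to 3. The lowest Rx-Dicer value lay well above the highest control value, and the spread inside either genotype was small beside the gap. Means were 6101 ± 202 and 10117 ± 365 (SD, n = 3 each), with a log2 fold change of 0.73 ± 0.10 (SE; 95% interval 0.53 to 0.93). The adjusted p was 1.34e-09 with DESeq2 and 0.0240 with edgeR. The value in Rx-Dicer 2, the library with Dicer1 RNA at the control level, lay between those of the other Rx-Dicer libraries. Dicer1 counts take in exons left in place and do not measure Dicer activity. Whether Tnrc6a follows Dicer1 between libraries was not tested.

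Tnrc6b (ENSMUSG00000047888, chr15:80711313-80941085, plus strand) moved alongside it. Its normalised counts were 4737, 5886 and 5676 in control samples and 8773, 8765 and 8002 in Rx-Dicer samples, with control 1 the lowest of the 6 libraries. The groups did not overlap. Means were 5433 ± 612 and 8513 ± 443 (SD, n = 3 each), and the log2 fold change was 0.65 ± 0.13 (SE; 95% interval 0.40 to 0.89). The adjusted p was 7.31e-05 with DESeq2 and 0.0719 with edgeR, so that the call was made by DESeq2 and not by edgeR.

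Tnrc6c (ENSMUSG00000025571, chr11:117654289-117763439, plus strand) did not pass the test. Its normalised counts were 4643, 5268 and 5189 in control samples and 6624, 5938 and 5941 in Rx-Dicer samples. These groups did not overlap either, but the gap was narrow. In TPM, the level per length defined below, they did overlap, with 25.6 in Rx-Dicer 3 and 25.7 in control 3. The log2 fold change was 0.29 ± 0.12 (SE; 95% interval 0.066 to 0.52), with an adjusted p of 0.172 by DESeq2 and 0.213 by edgeR. Non-overlap of normalised counts with Rx-Dicer above was found for 4 of the 10 members and for 8.55% of all genes tested.

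The balance of the 3 TNRC6 genes was followed as shares of their summed level per length, in TPM (transcript counts scaled by length and library) computed here from the counts and the exon length of each gene. Summed TNRC6 levels were 61.7, 69.3 and 72.1 TPM in control samples and 110, 110 and 87.1 TPM in Rx-Dicer samples. The lowest Rx-Dicer sum, in Rx-Dicer 3, was above the highest control sum. Tnrc6c made up 35.6% ± 0.22 of the sum in control and 29.3% ± 0.83 in Rx-Dicer samples (SD, n = 3 each). Tnrc6a went the other way, with a share of 43.6% ± 1.30 in control and 48.7% ± 0.38 in Rx-Dicer samples, and neither share overlapped between genotypes. The share of Tnrc6b was 20.8% ± 1.09 and 22.0% ± 0.70, with ranges that met. The smallest p that an exact two-sided permutation test of 3 against 3 samples can give is 0.1, and no other test of the shares was run. In control tissue the order per length was Tnrc6a, Tnrc6c, Tnrc6b. With the mean length of each gene's transcripts in place of the exon length, the control shares were 50.5% for Tnrc6a, 32.0% for Tnrc6b and 17.4% for Tnrc6c, so that the places of Tnrc6b and Tnrc6c depend on the length used.

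**Figure D2:**
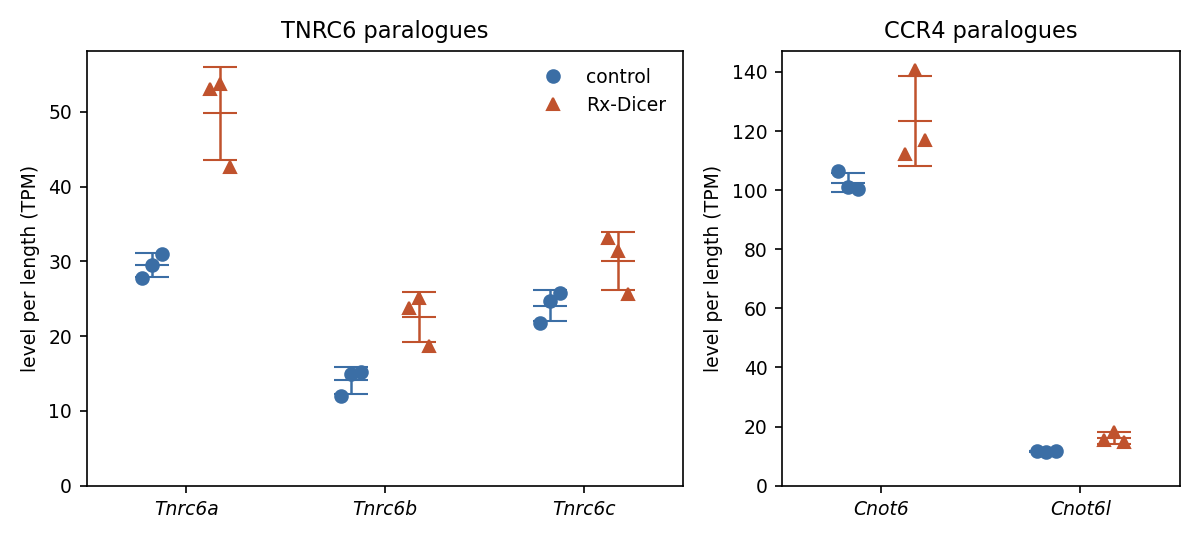
Level per length (TPM, from the counts and exon length) of the TNRC6 genes and of Cnot6 and Cnot6l. Circles are control and triangles Rx-Dicer samples, and bars are mean ± SD of 3 samples. Tnrc6a stands at 29.5 TPM in control and 49.8 TPM in Rx-Dicer samples, Cnot6 at 103 and 123 TPM, and Cnot6l at 11.6 and 16.1 TPM.

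Within CCR4-NOT only Cnot6l passed the test of the 4 subunits. Cnot6l (ENSMUSG00000034724, chr5:96070333-96164171, minus strand) had 2006, 1941 and 1896 normalised counts in control samples and 2461, 2782 and 2737 in Rx-Dicer samples. Control values lay close together, and the lowest Rx-Dicer value, in Rx-Dicer 1, was above them. Means were 1948 ± 55.2 and 2660 ± 174 (SD, n = 3 each), with a log2 fold change of 0.45 ± 0.12 (SE; 95% interval 0.22 to 0.68). The adjusted p was 0.00899 with DESeq2 and 0.115 with edgeR. The call was also lost when each library was corrected for gene length and GC content, where the log2 fold change was 0.21 (DESeq2 adjusted p = 0.481).

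Its paralogue Cnot6 (ENSMUSG00000020362, chr11:49671503-49712723, minus strand) was the more abundant CCR4-type nuclease. Normalised counts of Cnot6 were 11664, 11077 and 10411 in control samples and 11559, 13716 and 13957 in Rx-Dicer samples, so that Rx-Dicer 1 lay inside the control range. The log2 fold change was 0.24 ± 0.12 (SE; DESeq2 adjusted p = 0.365; edgeR 0.338). Without Rx-Dicer 1 it was 0.32 and passed the call (DESeq2 adjusted p = 0.0424). Cnot6l made up 10.2% ± 0.27 of the summed Cnot6 and Cnot6l level per length in control and 11.6% ± 0.42 in Rx-Dicer samples (SD, n = 3 each). The shares did not overlap, and the nuclease that passed the test was thus the minor one of the pair in both genotypes.

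The scaffold Cnot1 (ENSMUSG00000036550, chr8:95719451-95807464, minus strand) had 10234, 13391 and 12423 normalised counts in control samples and 12956, 13686 and 13544 in Rx-Dicer samples. The groups overlapped, since control 1 was low and the other controls were near the Rx-Dicer values. Its log2 fold change was 0.16 ± 0.13 (SE; DESeq2 adjusted p = 0.724). Cnot7 (ENSMUSG00000031601, chr8:40492540-40515847, minus strand) had 5653, 5137 and 4920 normalised counts in control samples and 5042, 5727 and 5807 in Rx-Dicer samples. Its log2 fold change was 0.077 ± 0.12 (SE; DESeq2 adjusted p = 0.903), and the 95% interval, -0.16 to 0.31, leaves room for a change of either sign. Cnot7 made up 49.3% ± 2.05 of the summed level per length of Cnot7 and its paralogue Cnot8 in control and 52.2% ± 2.98 in Rx-Dicer samples, with overlapping values.

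Pan3 (ENSMUSG00000029647, chr5:147430161-147548502, plus strand) had the lowest level per length of the 10 genes, 8.61 TPM in control samples. Its normalised counts were 2234, 2087 and 1976 in control samples and 1995, 2770 and 2410 in Rx-Dicer samples, the widest spread inside Rx-Dicer of any member relative to its mean. The log2 fold change was 0.19 ± 0.15 (SE; DESeq2 adjusted p = 0.698). Ddx6 (ENSMUSG00000032097, chr9:44604892-44640731, plus strand) had the highest level, 145 TPM in control samples, above 95.3% of the genes tested. Its normalised counts were 20040, 18646 and 18284 in control samples and 18941, 21400 and 20442 in Rx-Dicer samples, with a log2 fold change of 0.093 ± 0.11 (SE; DESeq2 adjusted p = 0.849). Edc4 (ENSMUSG00000036270, chr8:105880881-105894908, plus strand) had 3380, 4263 and 4283 normalised counts in control samples and 4150, 3767 and 3630 in Rx-Dicer samples. Edc4 was the one member with a log2 fold change below 0, at -0.047 ± 0.14 (SE; DESeq2 adjusted p = 0.964). For Pan3, Ddx6 and Edc4 the genotypes overlapped, and the upper 95% bounds of their log2 fold changes were 0.48, 0.31 and 0.22.

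**Figure D3:**
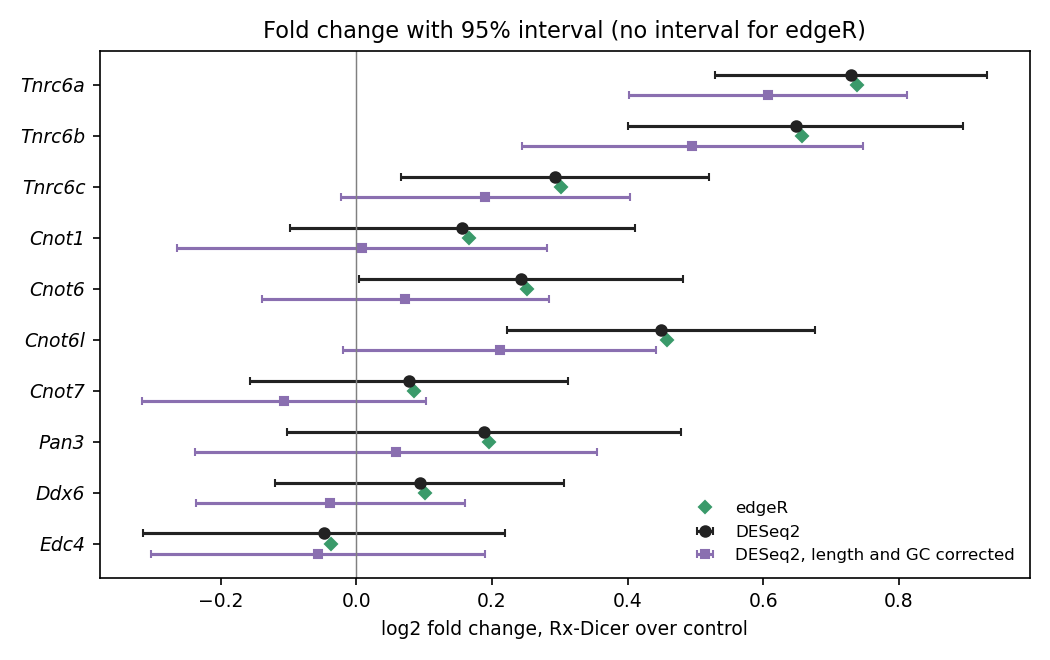
Log2 fold change (Rx-Dicer over control) of each silencing effector from DESeq2 (circles), from DESeq2 after the correction for gene length and GC content (squares) and from edgeR (diamonds). Bars are 95% intervals, which were not computed for edgeR. The corrected values of Tnrc6a and Tnrc6b, 0.61 and 0.50, stay clear of 0, and the corrected interval of Cnot6l includes it.

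The 10 genes have exon lengths of 5497 (Edc4) to 23677 bases (Tnrc6b), and the correction for length and GC content moved all of them downward. The median log2 fold change over all genes tested moved downward too, from -0.00087 to -0.049. After the correction Tnrc6a had a log2 fold change of 0.61 (DESeq2 adjusted p = 3.27e-06) and Tnrc6b 0.50 (DESeq2 adjusted p = 0.0106), and both were still called. Tnrc6c had 0.19 (DESeq2 adjusted p = 0.503). Cnot7 and Ddx6 moved to the other side of 0, at -0.11 and -0.038, with adjusted p-values of 0.804 and 0.954 in DESeq2.

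The 3′ untranslated region (UTR), where miRNAs bind most of their targets, was examined next. Several members have long ones. The longest annotated 3′ UTR measured 11609 bases in Tnrc6b, 6847 in Cnot6l, 4250 in Ddx6, 3690 in Cnot6, 2750 in Pan3, 2588 in Tnrc6c, 2345 in Tnrc6a, 1447 in Cnot7, 956 in Cnot1 and 363 in Edc4. The median of the 14054 tested genes with a 3′ UTR was 1217 bases. Genes with a 3′ UTR within 20% of the length in Tnrc6b had a median log2 fold change of 0.16 (48 genes), and 10.4% of them were called higher. For Cnot6l these were 0.13 (375 genes) and 7.20%. For Tnrc6a the median of genes of similar length was 0.041 (2122 genes) and 2.59% were called higher, so that its 0.73 stood farther from genes of its own 3′ UTR length than did the change of Tnrc6b or Cnot6l.

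**Figure D4:**
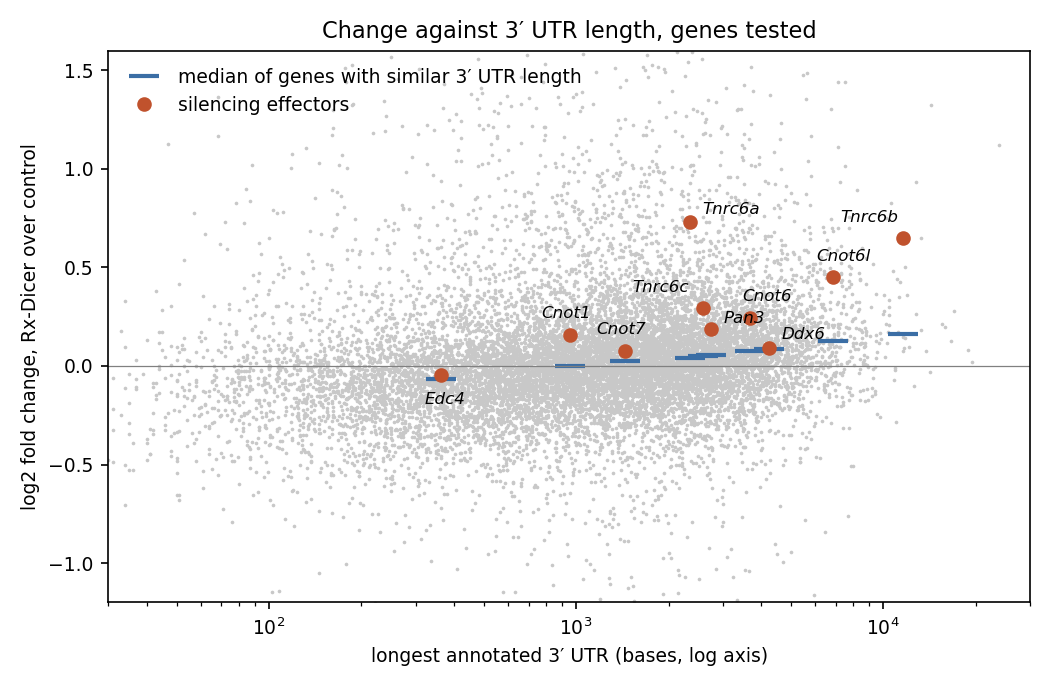
Log2 fold change against the length of the longest annotated 3′ UTR (bases, log axis) for tested genes (grey), the 10 silencing effectors (red) and the median of genes within 20% of each effector's 3′ UTR length (blue dashes). Genes beyond the axis limits are not drawn. The blue dashes climb from -0.064 beside Edc4 to 0.16 beside Tnrc6b, and Tnrc6a, Tnrc6b and Cnot6l lie above theirs.

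Matches to miRNA seeds were counted in these 3′ UTRs on the transcript strand, where a match is the 7-base reverse complement of miRNA bases 2 to 8. A match describes the sequence and is not shown to be a working site, and miRNA levels were not analysed here. The mature sequences below, from RefSeq (GRCm38.p6), are those of the miRNA family that the study centres on and of the family with the most matches in Tnrc6a, with the seed in capitals.
mmu-let-7a-5p: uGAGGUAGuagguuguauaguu
mmu-miR-30a-5p: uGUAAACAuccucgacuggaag

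The let-7 match CTACCTC was in 0 of the 10 members, and was in 10.8% of the 14054 tested 3′ UTRs. The 7-base form TACCTCA, counted after the first result was seen, was in 3 members (Tnrc6a, Tnrc6b and Cnot6l) and in 11.4% of tested 3′ UTRs. These are the 3 genes that rose, and binding of let-7 to them was not tested. Among genes of similar 3′ UTR length, CTACCTC was held by 14.7% for Tnrc6a, 45.8% for Tnrc6b and 36.3% for Cnot6l. For TACCTCA no share at similar length was computed, so that its presence in these 3 genes cannot be set apart from their length. The miR-30 match TGTTTAC was in 5 of 10 members and in 16.5% of tested 3′ UTRs. The miR-30 family was singled out after the counts were seen. It had 4 matches in Tnrc6a, 3 in Tnrc6b, 2 in Tnrc6c, 2 in Cnot6 and 1 in Cnot6l, and 0 in Cnot1, Cnot7, Pan3, Ddx6 and Edc4. All 3 TNRC6 genes and both CCR4-type nucleases thus carried it, among them Tnrc6c and Cnot6, which passed no call.

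Long 3′ UTRs hold more matches, so that each member was set beside 3′ UTRs of similar length. Of the 2122 genes with a 3′ UTR near the length in Tnrc6a, 24.5% held at least 1 miR-30 match and 0 held 4 or more. Of 2001 genes near the length in Tnrc6c, 25.4% held at least 1 and 4.25% at least 2. Of 1460 genes near the length in Cnot6, 34.5% held at least 1 and 6.64% at least 2. Near the length in Tnrc6b, 68.8% of 48 genes held at least 1 and 18.8% at least 3, and near that in Cnot6l 50.1% of 375 genes held at least 1. The 4 matches in Tnrc6a were thus not equalled at its length, while a single match as in Cnot6l was common at the length of Cnot6l. Cnot6l had 3 matches to the miR-9 family (ACCAAAG), which 1.87% of 3′ UTRs of similar length equalled. No miR-9 match in Cnot6l was followed by A. Such shares were read for every family in each member, with no correction for their number, so that the 1.87% is descriptive. Cnot6l also had 2 matches to miR-181 (TGAATGT), which 25.6% equalled. Tnrc6b had 3 miR-181 matches, which 29.2% of 3′ UTRs of similar length equalled. The miR-17 match GCACTTT was in 6 of 10 members, once in each, and in 14.6% of tested 3′ UTRs. Among 3′ UTRs of similar length at least 1 such match was held by 14% (Cnot7) to 66.7% (Tnrc6b).

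**Figure D5:**
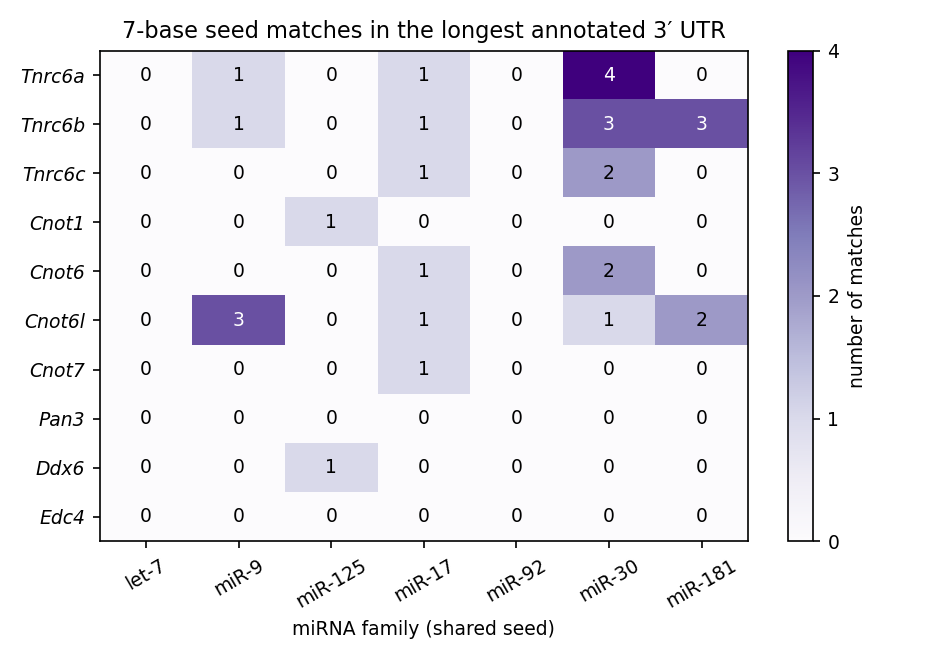
Number of 7-base seed matches for 7 miRNA families (columns) in the longest annotated 3′ UTR of each silencing effector (rows), with darker squares for more matches. The let-7 and miR-92 columns are 0 throughout, and the miR-30 column is filled for the TNRC6 genes, Cnot6 and Cnot6l.

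Some of the windows around miR-30 matches are shown, for the TNRC6 genes and Cnot6. Those at base 761 of Tnrc6a, base 9526 of Tnrc6b, base 3421 of Cnot6 and base 4394 of Cnot6l are left out. The match at base 761 of Tnrc6a follows a run of A, and that at base 9526 of Tnrc6b follows a TG repeat. Capitals mark the 7-base match with, where present, a following A, which makes the 8-base form TGTTTACA. This form was in 4 of 10 members and in 8.46% of tested 3′ UTRs. Each window lies in the 3′ UTR and is given with its GRCm38 coordinates, on the strand of the gene.
Tnrc6a, 3′ UTR base 434, chr7:123193377-123193399: agtgtagaTGTTTACtcaagggt
Tnrc6a, 3′ UTR base 722, chr7:123193665-123193687: aaccttctTGTTTACAgattttt
Tnrc6a, 3′ UTR base 1521, chr7:123194464-123194486: cttttaacTGTTTACAataggat
Tnrc6b, 3′ UTR base 2709, chr15:80932177-80932199: gcccctctTGTTTACAagacata
Tnrc6b, 3′ UTR base 10462, chr15:80939930-80939952: gggggctaTGTTTACAtagtgaa
Tnrc6c, 3′ UTR base 1036, chr11:117761879-117761901: tgtgtaaaTGTTTACtcaaggac
Tnrc6c, 3′ UTR base 1338, chr11:117762181-117762203: ctcccaccTGTTTACAgactttt
Cnot6, 3′ UTR base 209, chr11:49674970-49674992: gactggtgTGTTTACAcctttta

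The window at base 434 of Tnrc6a and that at base 1036 of Tnrc6c were the same at 12 of the 16 bases outside the match. The windows at base 722 of Tnrc6a and base 1338 of Tnrc6c were the same at 10 of 16. Over all 66 pairs of miR-30 windows in the members the median was 3.5 of 16, with a range of 0 to 12. Tnrc6a and Tnrc6c thus share sequence around a pair of their miR-30 matches, while their log2 fold changes were 0.73 and 0.29.

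Other genes of the same machinery were read in 7 lists of 61 genes. Of these, 4 rose and 3 fell, against 1.75% and 1.18% of all genes tested, and 54 were not called, with a median log2 fold change of 0.00015. With edgeR 0 of the 61 were called. An unadjusted p below 0.05 was reached by 15 of them with edgeR, against 2313 of the 17954 genes tested, and by 12 with DESeq2, against 2239 of 17128. Of the other 7 CCR4-NOT subunits 0 were called, with log2 fold changes of -0.089 (Cnot8) to 0.23 (Cnot4). The other 6 deadenylases, among them Pan2, the nuclease that PAN3 serves, gave 0 calls and -0.24 to 0.0062. In either list 0 genes had an unadjusted DESeq2 p below 0.05. Of the 4 Argonautes, the partners of TNRC6, 0 were called and 1 had such a p. Ago2, the Argonaute that can slice its target, came nearest, with 6861, 10167 and 9204 normalised counts in control and 11965, 12344 and 11376 in Rx-Dicer samples (log2 fold change 0.44 ± 0.15, DESeq2 adjusted p = 0.0914).

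Calls came from the other 4 lists, with 1 of 12 CCR4-NOT adaptors higher (median log2 fold change 0.20), 3 of 17 decapping and decay genes lower (-0.097), 1 of 9 genes of poly(A) binding and translational repression higher (-0.052) and 2 of 6 LIM and TRIM-NHL cofactors higher (0.34). The genes that rose were Trim71, Btg2, Mov10 and Gigyf1. Trim71, an RNA-binding ubiquitin ligase and a known let-7 target, had 352, 739 and 839 normalised counts in control samples and 1998, 2277 and 2511 in Rx-Dicer samples. Its log2 fold change, 1.81 ± 0.25 (SE), was larger than that of any member (adjusted p = 4.87e-10 with DESeq2, 0.0773 with edgeR). Btg2, an antiproliferative adaptor that brings CAF1-type nucleases to mRNAs and is also a p53 target, had 4478, 3867 and 3099 normalised counts in control samples and 8365, 5083 and 7475 in Rx-Dicer samples (0.87 ± 0.19, adjusted p = 0.00115 with DESeq2, 0.172 with edgeR). Mov10, an Argonaute-associated helicase, had a log2 fold change of 0.59 ± 0.16 (adjusted p = 0.0142 with DESeq2, 0.175 with edgeR). Gigyf1, a translational repressor that works with the cap-binding protein EIF4E2, had 0.54 ± 0.15 (adjusted p = 0.0179 with DESeq2, 0.174 with edgeR). The call of Mov10 was lost without control 1, control 2 or Rx-Dicer 1 (DESeq2 adjusted p = 0.0538, 0.103 and 0.0641) and that of Gigyf1 without Rx-Dicer 1 or Rx-Dicer 3 (DESeq2 adjusted p = 0.0906 and 0.0548).

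The 3 genes that fell, Lsm4, Lsm6 and Lsm7, encode subunits of the LSM ring, which binds shortened mRNA tails before decapping and, in another form, the U6 spliceosomal RNA. Normalised counts of Lsm6 were 4632, 4693 and 4431 in control samples and 3735, 3552 and 3605 in Rx-Dicer samples. Log2 fold changes were -0.46 ± 0.14 for Lsm4, -0.34 ± 0.10 for Lsm6 and -0.51 ± 0.16 for Lsm7, with DESeq2 adjusted p-values of 0.0332, 0.0444 and 0.0471 and edgeR adjusted p-values of 0.183, 0.158 and 0.218. These calls depended on the scaling and on single libraries. With total-count scaling Lsm6 and Lsm7 were not called (DESeq2 adjusted p = 0.0622 and 0.0632), and Lsm7 was not called with TMM scaling or with the first run alone (0.0516 and 0.0573). Leaving out control 2, control 3, Rx-Dicer 2 or Rx-Dicer 3 ended that of Lsm4 (DESeq2 adjusted p of 0.0980 to 0.233), leaving out control 2, Rx-Dicer 2 or Rx-Dicer 3 that of Lsm6 (0.0267 to 0.136, the lowest with a log2 fold change of -0.316, inside the threshold), and leaving out any library but Rx-Dicer 1 that of Lsm7 (0.0706 to 0.348). After the length and GC correction Lsm6 alone of the LSM genes was called (DESeq2 adjusted p = 0.0175).

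The pattern of Tnrc6a over the 6 samples was most like that of Rev3l, the catalytic subunit of DNA polymerase zeta, Irs2, an insulin receptor substrate, and Clock, a circadian transcription factor. Likeness was the root mean square difference of centred log2 normalised counts, taken over 9677 genes with a mean of at least 500. It was 0.069 for Rev3l, 0.078 for Irs2 and 0.079 for Clock, against a median of 0.39 over all candidates. Tnrc6b came next to these (0.083), and from the side of Tnrc6b the nearest genes were Tnrc6a, the phosphatase Cdc14b (0.087) and Irs2 (0.089). Cnot6l was nearest to Fcho2, an endocytic adaptor (0.027), the actin-binding Palld (0.050) and Spopl, a ubiquitin ligase adaptor (0.051). The values were not scaled, so that genes with a similar fold change come out as near. Log2 fold changes were 0.47, 0.53 and 0.46 for these 3 genes, and 0.79, 0.81 and 0.70 for Rev3l, Irs2 and Clock. The measure therefore does not tell a different pattern from a smaller change.

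The tissue expressed the progenitor markers of the telencephalon in every library, with a summed level of 2018 to 2217 CPM (counts scaled to the library total) in control and 1703 to 2139 CPM in Rx-Dicer samples over 7 genes. Of these Six3 was called higher and Pax6 lower, and their median log2 fold change was -0.16. Markers of the hypothalamus and optic field (6 genes) summed to 13.5 to 22.5 CPM in control and 42.3 to 73.5 CPM in Rx-Dicer samples, and 2 of them, Otp and Foxd1, were called higher. Markers of microglia (5 genes) summed to 16.9 to 21.3 CPM in control samples and to 65.2, 20.5 and 40.7 CPM in Rx-Dicer samples 1 to 3, with Csf1r and Cx3cr1 called higher. The values of Btg2 stood in the same order over the Rx-Dicer samples as the microglial sum. Over control samples 1 to 3 the orders differed, with a microglial sum of 21.3, 16.9 and 19.6 CPM and Btg2 at 4478, 3867 and 3099 normalised counts. In Rx-Dicer 2 the microglial sum lay in the control range, and Tnrc6a, Tnrc6b and Cnot6l lay above all control values. The part of microglia and of hypothalamic and optic cells in the results was not tested. Neuronal, mesenchymal, endothelial and erythroid marker sums overlapped between genotypes, and no marker was at 0 in every library.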

How the data were processed

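The values are raw counts of reads per gene, 2 files per sample, which the authors deposited. According to their methods, directional libraries were read as pairs of 100 bp, trimmed with Trim Galore 0.6.5, aligned to GRCm38.p6 with HISAT2 and counted with HTSeq 0.12.4. Reads that overlapped several genes or aligned to several places were not counted, so near-identical copies are undercounted. The 2 files of a sample were summed as repeat runs. Genotypes were compared over all genes with DESeq2's Wald test (version 1.42.0 in R 4.3.3; median-of-ratios size factors, unshrunken fold changes, Benjamini-Hochberg adjustment), the tool of the study, called at adjusted p under 0.05 and over 1.25-fold. The alternative tool was edgeR 4.0.16 (quasi-likelihood, TMM, at least 10 counts in 3 samples). The length and GC correction used natural splines with 5 degrees of freedom. Both tools were tested on simulated data, where DESeq2 made more wrong calls than edgeR. The smallest level a library could show, 3 counts, was 0.0620 to 0.0870 CPM, which covers counting error only. Of 55471 identifiers, 55144 were in GENCODE M21 (GRCm38), which gave positions, lengths and 3′ UTRs. Members and lists were chosen with earlier results of these data known. Named genes were the 10 members, Dicer1, every called gene of the other lists, the 3 genes most like each called member, and marker genes; Ago2, Cnot4, Cnot8 and Pan2 were named after their values were seen.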

Additional observations from a re-analysis of the deposited data

How the results depend on the processing

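Tnrc6a was called under all 15 alternatives, Tnrc6b under all but edgeR's quasi-likelihood test, and Cnot6l under all but edgeR, the replicate block, and the length and GC correction with and without the block. The number of members called was 1 with edgeR and 2 to 4 under the others, with 3 to 4 when 1 sample was left out. The 7 calls among the other pathway genes were 0 with edgeR, 3 with the replicate block, 4 with the length and GC correction and the block together, and 3 to 6 when 1 sample was left out (3 without Rx-Dicer 3, 4 without control 2). Samples of the same number did not deviate together on average (mean correlation of deviations 0.0045, range -0.265 to 0.289). For samples of different number the mean was -0.0028, with a range of -0.272 to 0.312. The labels state no pairing, and the paper calls the controls littermates of the mutants. With 3 samples per group these correlations can neither show nor exclude a pairing by litter. The block lowered the calls over all genes from 502 to 314, and edgeR to 8. With the block the log2 fold change of Cnot6l was 0.45 (DESeq2 adjusted p = 0.0669), and Lsm4, Lsm6, Lsm7 and Gigyf1 were not called (0.135, 0.187, 0.118 and 0.0719). The log2 fold change of Dicer1 ran from -0.47 to -0.16 when 1 sample was left out, and passed the threshold without Rx-Dicer 2. Directions turned for Cnot7 (-0.1063 with the length and GC correction, -0.1071 with the block added), for Ddx6 (-0.0380 and -0.0386) and for Edc4 (0.0066 without control 2 and 0.0103 without control 3, in a range of -0.1519 to 0.0103 when 1 sample was left out), none of them called. The cause was not tested. With the mean transcript length, control shares were 50.5% (Tnrc6a), 32.0% (Tnrc6b), 17.4% (Tnrc6c), 15.8% (Cnot6l) and 62.7% (Cnot7). The 7-base let-7 word ending in A, added after the data were seen, was in 3 members. Each member had at least 1642 counts in every library.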
